A study of Mus musculus with 36 samples.

Results

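The genes studied here encode the subunits of the proteasome, the barrel-shaped protease that degrades ubiquitin-tagged proteins. They were taken from the count table by symbol: Psma, Psmb, Psmc or Psmd followed by a digit, without Psmb8, Psmb9 and pseudogene symbols, and with a mean of at least 10 counts over the 36 libraries. Of 39017 genes, 43 matched the prefix, 5 were dropped by name and 2 by the count minimum (Psmb11 and Psma8, with means of 0.194 and 0 counts), which left 36 members. The member with the lowest mean count above the minimum was Psmc3ip, at 299 counts, and all 36 were among the 14439 genes tested. By role, 15 encode the 20S core (7 of the alpha ring and 8 of the beta ring), 17 encode the 19S regulatory particle (6 ATPases and 11 non-ATPase subunits), 3 are chaperones of regulatory particle assembly, and 1, Psmc3ip, shares only the symbol, since its product acts in meiotic recombination.

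In the proteasome, substrates are bound and deubiquitinated by the regulatory particle, unfolded by its ring of ATPases and cut inside the core by catalytic beta subunits. Under interferon, cells make an immunoproteasome in which the inducible subunits Psmb8, Psmb9 and Psmb10 take the place of the constitutive Psmb5, Psmb6 and Psmb7. When proteasome activity falls short, the transcription factor Nfe2l1 is known to raise the expression of core and regulatory particle genes together. Pancreatic fibroblasts are stromal cells that deposit much of the collagen of a pancreatic tumor.

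RNA was sequenced from murine pancreatic fibroblasts of the C57BL/6 strain, which were cultured alone (mono-culture) or for 48 h with 1 of 8 tumor lines: the sub-clones E, H, K, M, N, T and V, or KPC1, a name that the labels do not explain. The tumor cells carried GFP, and fibroblasts were separated from them by fluorescence-activated cell sorting. Sample titles of the mono-culture carry the letters PSC where those of the co-cultures carry the name of the tumor line. Each of the 9 groups held 4 libraries, and nothing in the labels says whether these were separate cultures, so p-values measure the spread between these libraries, which may be technical. No genotype, treatment or age beyond the strain is given for the fibroblasts, and all co-cultures were compared with the same 4 mono-culture libraries. Totals ranged from 12532122 to 21985538 counts per library (mean 18177806, SD 2418484).

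The labelled cell type was checked against its markers. The 9 fibroblast markers summed to 21950 ± 871 CPM (counts scaled to library size and TMM; SD, n = 4) in mono-culture and to between 14790 ± 1552 CPM with KPC1 and 26710 ± 4752 CPM with clone M. Most of the sum came from Col1a1, Col1a2 and Col3a1, at 7268, 5622 and 5168 CPM in mono-culture. The 12 epithelial markers listed for tumor cells summed to 1.48 ± 0.342 CPM in mono-culture and to between 109 ± 94.5 CPM with clone V and 552 ± 104 CPM with clone N, mostly from Krt18 and Krt8. Of the list's 12 genes, Epcam, Cldn4, Cldn7 and Esrp1 stayed at or under 9 counts in every library and were too low to be tested, whereas Krt19, Cldn6 and Cdh1 reached group means of 79.7, 38.9 and 30.9 CPM in co-culture, from 0.199, 0 and 0.258 CPM in mono-culture. Of the leukocyte markers, Cd3e was at 0 in all 36 libraries and Ptprc did not pass 3 counts, while Cd68 stood at 3.37 CPM in mono-culture and at up to 12.99 CPM in a co-culture mean. Fewer cells of a type and less RNA per cell cannot be told apart in such bulk libraries, and the part of epithelial RNA in the results on proteasome genes was not tested.

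To determine how abundant the subunit transcripts were relative to each other, levels were compared per length, as the RPKM values (reads scaled to gene length and library size) deposited by the authors. In mono-culture the core members ranged from 25.7 RPKM for Psmb10 to 215 RPKM for Psmb1, with a median of 56.9, and the regulatory particle members ranged from 23.8 RPKM for Psmd13 to 98.6 RPKM for Psmd2, a scaffold subunit, with a median of 59.2. The 3 chaperones were lower, at 13.04 RPKM for Psmd5, 17.6 for Psmd9 and 19.4 for Psmd10. The spread within the core was 8.40-fold in mono-culture, or 6.96-fold without Psmb10, and 4.15-fold within the regulatory particle. Among the ATPases, Psmc4 had the lowest RPKM in all 9 groups and Psmc6 the highest in 5 of them. The members made up 0.384% ± 0.0103 (SD, n = 4) of all counts in mono-culture, with a lowest mean of 0.32% ± 0.0261 with clone M and a highest of 0.458% ± 0.0555 with clone V.

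To determine if contact with tumor cells changed these transcripts, each co-culture was compared with the mono-culture by edgeR's quasi-likelihood test over all genes tested, with calls at an adjusted p under 0.05. Regulatory particle genes made up most of the members called higher with clones V and H and with KPC1, and members of both complexes were called lower with clone M. With clone V, 20 members were called higher and 1 lower, against a background of 29.4% and 28.9% of all genes. With clone H, 13 were called higher and 2 lower (background 27.8% and 26.4%), and with KPC1, 12 were called higher and 2 lower (30.5% and 28.5%). With clone M, 0 members were called higher and 11 lower (12.2% and 10.8%). Against their backgrounds, the share of members called was larger for rises with clone V and for falls with clone M, whereas the rises with KPC1 stood near the background and the falls with clones V, H and KPC1 below it. The count for clone M fell to 5 without mono-culture replicate 2 or clone M replicate 3 and to 7 without mono-culture replicate 3 or clone M replicate 1.

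In the other lines the shares of members called higher and of members called lower were all below the background. The counts were 5 higher and 4 lower for clone T (background 25% and 24.7%), 3 and 3 for clone N (19.7% and 19.2%), 2 and 2 for clone E (16.5% and 15.5%), and 0 and 2 for clone K (10.4% and 8.69%). Scaled by library size only, the split became 3 higher and 5 lower with clone T, 1 and 3 with clone N, 1 and 4 with clone E, and 8 and 3 with KPC1. Leaving out clone E replicate 3 left 2 members called with clone E, leaving out clone N replicate 3 left 3 with clone N, and leaving out replicate 2 or 3 of mono-culture or of clone K left 1 with clone K. In all, 27 of the 36 members were called in at least 1 line and 9 in none. Of the 36, 6 were called higher in at least 1 line and lower in at least 1 other. The same counts over all genes were not made, and the lines share the mono-culture libraries. The counts are thus not read as a trait of the members. The mean of the 7 clonal co-cultures differed from mono-culture in 7 members, 5 higher and 2 lower, below the background of 24.3% and 24.9%, and in 2 higher and 3 lower when scaled by library size only. The 5 that rose were Psmd8, Psmc4, Psmd12, Psmd14 and Psmd11, and the 2 that fell were Psmb10 and Psmb6. The call for Psmd11 (0.15, adjusted p = 0.0322) was lost without any 1 of 7 libraries, with an adjusted p of 0.242 without mono-culture replicate 1.

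**Figure D1:**
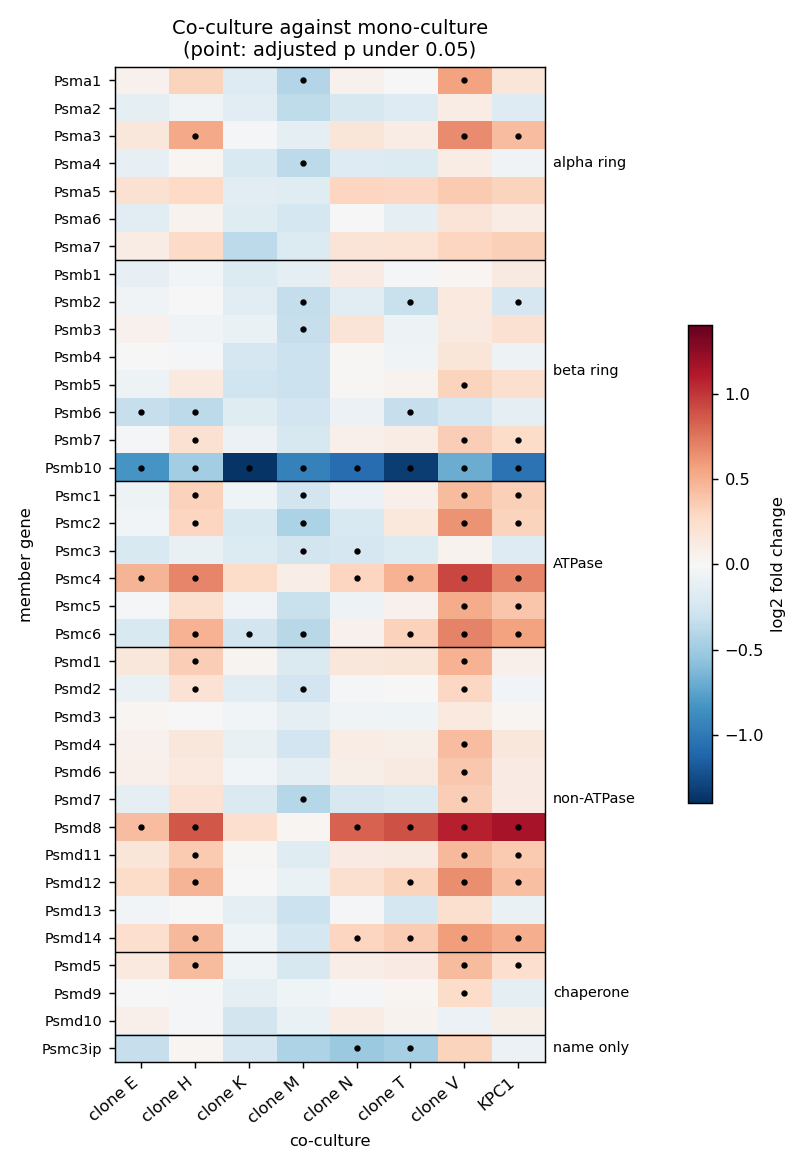
Log2 fold change of each of the 36 members (rows, by role) in each co-culture against mono-culture (columns); color gives the size, and a point marks an adjusted p under 0.05 in edgeR. Psmb10 is marked lower in all 8 columns, Psmd8 and Psmc4 are marked higher in 6, and the clone M column has 11 points, all lower.

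The alpha ring forms the outer rings and the gate of the core. Of its 7 members, at most 2 were called in any line against mono-culture, and 6 differed among the clones, beside 67.5% of all genes. With clone V, 2 of 7 were called higher, Psma3 and Psma1, beside 29.4% of all genes. With clone M 2 were called lower, Psma1 and Psma4, beside 10.8%. The clone M call for Psma1 was lost without any 1 of 5 libraries, at an adjusted p of up to 0.11. That for Psma4 was lost without mono-culture replicate 2, at 0.0534. Psma3 rose most, from 94.7, 103, 95.9 and 84.2 CPM in mono-culture to 165, 117, 148 and 169 CPM with clone V and to 110.2, 141, 129 and 163 CPM with clone H. All libraries of both lines lay above the mono-culture. The log2 fold changes were 0.67 ± 0.16 (SE, adjusted p = 0.000582) and 0.53 ± 0.16 (adjusted p = 0.00568). With KPC1, Psma3 was also called higher (log2 fold change 0.43, adjusted p = 0.0196), but 1 library set this value: replicate 4 stood at 184 CPM and the others at 106, 110.5 and 108, and without it the adjusted p was 0.225. Leaving out mono-culture replicate 4 also ended the call (adjusted p = 0.0641). Near-identical pseudogenes of Psma3 exist, of which Gm13835 had a mean of 69.3 counts against 2025 for Psma3, so that some of its reads may be shared. Psma2, Psma5, Psma6 and Psma7 were called in no line, and Psma2 came nearest with clone M (-0.35, adjusted p = 0.0504). Psma1, Psma4 and the other members that the rule for named genes did not take are given to account for all members.

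The beta ring holds the catalytic sites. Of the 3 constitutive catalytic subunits, Psmb6, which cuts after acidic residues, was called lower in 3 lines, while Psmb5 and Psmb7, which cut after hydrophobic and basic residues, were called lower in none. Psmb6 stood at 131, 141, 130.1 and 132 CPM in mono-culture and at 98.4, 99.2, 92.7 and 125 CPM with clone H, and all 4 libraries of 6 lines lay below the mono-culture. It was called lower with clones E, H and T (log2 fold changes -0.32, -0.36 and -0.32, adjusted p = 0.0303, 0.00838 and 0.0186) and in the clonal mean (-0.25, adjusted p = 0.0143). The call for the mean was lost without mono-culture replicate 2 (adjusted p = 0.0672), that for clone E without any 1 of 5 libraries (up to 0.101) and that for clone T without either of 2 (up to 0.0671). With KPC1 the value of Psmb6 was -0.13 and not called (adjusted p = 0.334). Its replicate 4 stood at 166 CPM against 107, 103 and 111 CPM in the others, and without that library the adjusted p was 0.00862. Psmb7 was called higher with clones H, V and KPC1, with log2 fold changes of 0.21, 0.34 and 0.25, and Psmb5 in 1 line, clone V, at 0.31 (adjusted p = 0.0251). The call for Psmb7 with clone H was lost without any 1 of 6 libraries (adjusted p up to 0.113) and that for Psmb5 without any 1 of 3 (up to 0.117). Reads of Psmb7 overlap Nek6 on the opposite strand over 11.8% of its exons, and whether counting used strand is not stated. Of the structural beta subunits, Psmb2 was called lower with clones M, T and KPC1 (-0.33, -0.31 and -0.24), Psmb3 with clone M (-0.33, adjusted p = 0.0367), and Psmb1 and Psmb4 in no line. For Psmb2 the call with KPC1 was lost without any 1 of 5 libraries (adjusted p up to 0.188), that with clone M without either of 2 (up to 0.0913) and that with clone T without mono-culture replicate 2 (0.0689), and that for Psmb3 without any 1 of 5 (up to 0.134).

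The member that changed most was Psmb10, the inducible subunit that replaces Psmb7 in the immunoproteasome. It lies at chr8:105935735-105938444 on the minus strand (GRCm38). In mono-culture its 4 libraries stood at 37.1, 29.2, 26.5 and 35.9 CPM. They stood at 12.54, 10.98, 10.8 and 15.2 CPM with clone K, at 12.6, 13.1, 11.03 and 14.6 CPM with clone T, and at 14.9, 13.1, 15.8 and 17.5 CPM with clone N. Those of clone M were at 18.9, 15.9, 15.4 and 16.7 CPM, those of clone E at 18.7, 17.7, 16.6 and 19.6 CPM, and those of KPC1 at 13.3, 9.47, 19.9 and 20.1 CPM. In these 6 lines every library lay below every mono-culture library. With clone V (14.8, 16.995, 19.5 and 28.7 CPM) and clone H (15.1, 20.4, 22.97 and 33.3 CPM) the libraries numbered 4 reached into the range of the mono-culture.

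Psmb10 was called lower in all 8 lines. The log2 fold changes ran from -1.37 ± 0.21 with clone K (adjusted p = 1.48e-05) and -1.33 ± 0.21 with clone T (adjusted p = 4.82e-06) to -0.69 ± 0.20 with clone V (adjusted p = 0.00466) and -0.49 ± 0.20 with clone H (adjusted p = 0.0434). The last call was lost when any 1 of 5 libraries was left out, with an adjusted p of up to 0.184, without the filter on low counts (0.0789) and in a fit of the compared groups alone (0.0673), and the calls in the other 7 lines held in every alternative tried. The clones also differed in Psmb10 among themselves (F-test, adjusted p = 0.00248), while KPC1 did not differ from their mean beyond the spread (log2 fold change -0.08 ± 0.16, adjusted p = 0.737). The promoter of Psmb10 from RefSeq (GRCm38.p6, 250 bases before to 50 after the start) is shown because it is the member that fell in every line. Its capitals mark a CACGTG E-box, and it held no GAAANNGAAA site of interferon regulatory factors on either strand.

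Psmb10, chr8:105938343-105938642, minus strand: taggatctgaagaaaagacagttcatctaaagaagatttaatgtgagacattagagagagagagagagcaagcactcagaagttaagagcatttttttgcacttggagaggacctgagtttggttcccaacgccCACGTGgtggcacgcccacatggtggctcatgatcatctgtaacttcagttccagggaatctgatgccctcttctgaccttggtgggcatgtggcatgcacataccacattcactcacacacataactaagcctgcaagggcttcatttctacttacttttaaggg

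To compare Psmb10 with the other inducible parts of the proteasome, Psmb8, Psmb9 and the interferon-inducible activator subunits Psme1 and Psme2 were examined, none of which is a member. Psmb9 was called lower in all 8 lines, with log2 fold changes between -2.77 and -1.25, and Psmb8 in 5, with values between -1.44 and -0.32 over the 8 lines. Both were low in mono-culture, at 4.74 ± 1.12 and 9.69 ± 2.88 CPM. Psme2 fell in all 8 lines, by 0.54 to 0.82 on the log2 scale (45.8 ± 2.91 CPM in mono-culture), and Psme1 was called lower in 6, with values between -0.74 and -0.34 over the 8 lines. Psmf1, an inhibitor of the proteasome, was called lower in all 8 lines too, with values between -1.03 and -0.32. Psme3, the nuclear activator, was called higher in 5 lines, with a largest log2 fold change of 1.22 with clone V.

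The 6 ATPases form the ring that unfolds substrates. With clone V 5 of 6 were called higher and with KPC1 also 5, with clone H 4, beside 29.4%, 30.5% and 27.8% of all genes, and with clone M 4 of 6 were called lower, beside 10.8%. Psmc4 had a positive change in all 8 lines. Its 4 libraries stood at 46.7, 50.6, 48.0 and 50.3 CPM in mono-culture, at 119, 80.1, 84.4 and 91.4 CPM with clone V, and at 69.8, 86.4, 82.7 and 76.3 CPM with clone H. They stood at 75.7, 78.6, 76.2 and 84.0 CPM with KPC1, at 70.5, 68.6, 65.1 and 70.6 CPM with clone T, and at 77.9, 57.9, 68.8 and 68.3 CPM with clone E. They stood at 68.2, 53.8, 63.1 and 55.6 CPM with clone N, at 63.0, 52.9, 64.4 and 53.2 CPM with clone K, and at 44.9, 50.3, 53.3 and 60.1 CPM with clone M. All libraries of 7 lines lay above the mono-culture, and those of clone M overlapped it.

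Psmc4 (chr7:28041707-28050101, minus strand) was called higher in 6 lines. The log2 fold change was 0.94 ± 0.11 with clone V (1.92-fold, adjusted p = 1.42e-08), 0.69 ± 0.11 with clone H (adjusted p = 3.34e-06), 0.68 ± 0.11 with KPC1 (adjusted p = 2.65e-06), 0.49 ± 0.11 with clone T (adjusted p = 0.000337), 0.48 ± 0.11 with clone E (adjusted p = 0.000891) and 0.30 ± 0.11 with clone N (adjusted p = 0.0263). The call for clone N was lost without any 1 of 3 libraries (adjusted p up to 0.143) and under library size scaling (0.101). With clones K and M the values were 0.26 (adjusted p = 0.0941) and 0.09 (adjusted p = 0.585).

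Psmc6 had the smallest p-value of all members in the test among the clones. Its libraries stood at 121, 135, 137 and 119.7 CPM in mono-culture, at 224, 191, 219 and 195 CPM with clone V, at 190.4, 188, 168 and 214 CPM with KPC1, and at 162, 179, 185 and 192 CPM with clone H. With clone T they stood at 152, 170.3, 155 and 162 CPM, and with clone N at 131, 113, 132 and 159 CPM. With clones E, K and M they stood at 118, 102, 106 and 118 CPM, at 113, 102, 107 and 108 CPM, and at 93.9, 94.2, 97.0 and 106 CPM. The libraries of clones V, H, T and KPC1 thus all lay above the mono-culture, those of clones E, K and M all below it, and those of clone N overlapped it. Psmc6 was called higher in the first 4 lines (log2 fold changes 0.69, 0.49, 0.32 and 0.57) and lower with clones K (-0.26, adjusted p = 0.0347) and M (-0.39, adjusted p = 0.00115). The value for clone E was -0.21 (adjusted p = 0.0634). The call for clone K was lost without any 1 of 5 libraries, with an adjusted p of up to 0.13.

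Psmc2 and Psmc1 were likewise called higher in 3 lines, V, H and KPC1, and lower with clone M. With clone V, Psmc2 stood at 273, 193, 187 and 166 CPM against 122, 145, 130.1 and 133 CPM in mono-culture (log2 fold change 0.63, adjusted p = 2.62e-05), and with clone M at 95.4, 105, 91.8 and 98.3 CPM (-0.44, adjusted p = 0.00506). Its groups overlapped the mono-culture in clones E, K, N and T. The calls for Psmc2 with clone H and KPC1 (0.31 each) were each lost without either of 2 libraries, with an adjusted p of up to 0.0831. Psmc1 changed by 0.45 with clone V (adjusted p = 3.98e-05) and by -0.25 with clone M (adjusted p = 0.0286), a call lost without any 1 of 4 libraries (up to 0.0971). Psmc5 was called higher with clone V (0.52) and KPC1 (0.39). Psmc3 was called higher in no line and was called lower with clones M and N (-0.25 and -0.23, adjusted p = 0.0456 and 0.0442), and both calls were lost without any 1 of 6 libraries (adjusted p up to 0.155 and 0.134).

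The non-ATPase subunits make up the rest of the base and the lid of the regulatory particle. The subunit that rose most was Psmd8, a lid subunit at chr7:29174188-29180701 (minus strand). It stood at 91.2, 102, 93.3 and 79.8 CPM in mono-culture, at 225, 175, 187 and 227 CPM with KPC1, and at 238, 140.5, 206 and 193 CPM with clone V. With clones T, H and N it stood at 190.0, 155, 164 and 173 CPM, at 141, 144, 194 and 188 CPM, and at 134, 141, 166 and 207 CPM. With clones E, K and M it stood at 124, 109.5, 136 and 123 CPM, at 101, 91.1, 125 and 113 CPM, and at 80.5, 78.3, 106 and 108 CPM. In the first 6 of these lines every library exceeded the mono-culture, and the libraries of clones K and M overlapped it.

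The log2 fold change of Psmd8 was 1.15 ± 0.15 with KPC1 (2.23-fold, adjusted p = 1.26e-07), 1.09 ± 0.15 with clone V (2.12-fold, adjusted p = 3.26e-07), 0.90 ± 0.15 with clone T, 0.87 ± 0.15 with clone H and 0.82 ± 0.15 with clone N. With clone E it was 0.43 ± 0.15 (adjusted p = 0.0269), a call that was lost under library size scaling (adjusted p = 0.0613) and without any 1 of 3 libraries (up to 0.096). With clones K and M it was 0.23 (adjusted p = 0.296) and 0.03 (adjusted p = 0.922). Per length, the gene stood at 62.0 ± 5.14 RPKM in mono-culture and at 129 ± 16.5 RPKM with KPC1, where it was the highest of the regulatory particle. KPC1 also exceeded the mean of the 7 clones in Psmd8, by 0.53 ± 0.11 (adjusted p = 0.000223).

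**Figure D2:**
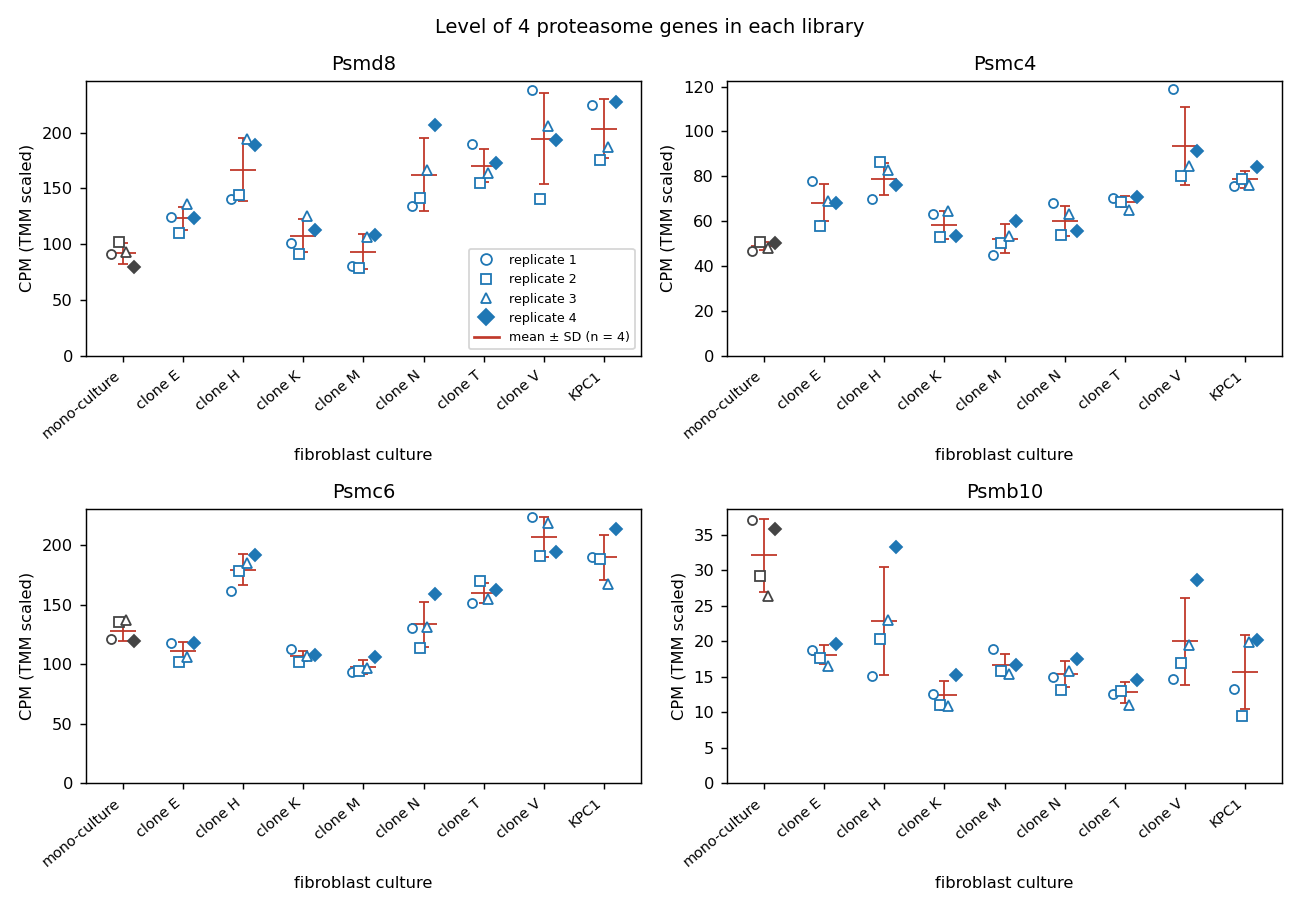
CPM (TMM scaled, linear axis from 0) of Psmd8, Psmc4, Psmc6 and Psmb10 in each library of the 9 groups; the marker gives the replicate number, filled for number 4, and red lines give mean ± SD (n = 4). Psmc6 lies above the mono-culture with clones H, T, V and KPC1 and below it with clones E, K and M, while Psmb10 lies lower in the co-cultures, with number 4 the highest library in 7 of 8.

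Psmd14, the deubiquitinase of the lid, was called higher in 5 lines. It stood at 63.6, 74.2, 74.0 and 65.1 CPM in mono-culture, at 125, 88.1, 93.8 and 108 CPM with clone V, and at 88.0, 94.5, 93.6 and 102 CPM with clone H. All libraries of clones V, H and T and of KPC1 lay above the mono-culture. The log2 fold changes were 0.58 ± 0.12 with clone V (adjusted p = 9.51e-05), 0.51 ± 0.12 with KPC1, and 0.45, 0.35 and 0.30 with clones H, T and N (SE 0.12 each). The call for clone N (adjusted p = 0.0467) was lost in several alternatives, with an adjusted p of up to 0.361 when the libraries numbered 4 were left out. That for clone T was lost without mono-culture replicate 1 (0.0528) and that for the clonal mean (0.23, adjusted p = 0.0368) without any 1 of 6 libraries (up to 0.169). Of its fellow lid subunits, Psmd12 was called higher in 4 lines (0.65 with clone V, 0.47 with clone H, 0.42 with KPC1 and 0.31 with clone T), and Psmd11 in 3 (0.46, 0.37 and 0.37 with clone V, clone H and KPC1).

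The ubiquitin receptor Psmd4 was called higher in 1 line, clone V (0.44 ± 0.11, adjusted p = 0.00119). Psmd2, the scaffold that docks ubiquitin shuttles, was called higher with clones V and H (0.29 and 0.20, the second lost without any 1 of 3 libraries) and lower with clone M (-0.27, adjusted p = 0.0103). Psmd7, the partner of Psmd14 in the lid, was called higher with clone V (0.34) and lower with clone M (-0.40, adjusted p = 0.00991), calls that were lost without clone V replicate 1 (0.23, adjusted p = 0.0953) and without clone M replicate 3 (adjusted p = 0.0533). With clones N and T, where Psmd14 was called higher, Psmd7 stood at -0.22 and -0.19 (adjusted p = 0.122 and 0.17). Psmd1, a scaffold of the base, was called higher with clones V and H (0.49 and 0.34), the lid subunit Psmd6 with clone V (0.38, adjusted p = 0.0713 without clone V replicate 1), and the lid subunits Psmd3 and Psmd13 were called in no line. Psmd2 and Psmd11 have near-identical copies elsewhere in the genome, and these had mean counts of 15.3 to 64.2, against 5157 and 2807 for the genes themselves.

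Of the 3 chaperones, which hold ATPases before assembly, Psmd5 was called higher with clones H, V and KPC1 (0.45, 0.45 and 0.24), Psmd9 with clone V (0.26, adjusted p = 0.0472), and Psmd10 in no line. The call for Psmd9 was lost without any 1 of 6 libraries, with a value of 0.14 (adjusted p = 0.296) without clone V replicate 1, and that for Psmd5 with KPC1 was also lost without any 1 of 6 (up to 0.127). Reads of Psmd9 overlap a non-coding gene on the opposite strand over 25.5% of its exons. Psmc3ip, which is no subunit, was called lower with clones N and T (-0.52 and -0.47, lost without either of 2 and any 1 of 4 libraries), and overlaps Mlx on the opposite strand over 21.2% of its exons.

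To compare the core with the regulatory particle over the 9 groups, the members of each were averaged on the log2 CPM scale in every library. The regulatory particle mean lacks its subunits Adrm1 and Shfm1, whose symbols the rule does not take. Adrm1 was called higher in 6 lines and Shfm1 lower in 6. The choice of members was made with results of these data known, so the means are described and not tested. The core stood at 6.48 ± 0.0644 in mono-culture and the regulatory particle at 6.73 ± 0.0729 (SD, n = 4). Against these, the regulatory particle was higher by 0.481 with clone V, 0.300 with clone H, 0.276 with KPC1 and 0.143 with clone T, with all 4 libraries of each line above the mono-culture. It was lower by 0.222 with clone M, with all 4 libraries below. With clones E, N and K, at 0.062, 0.068 and -0.057, the libraries overlapped the mono-culture.

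The core was higher than in mono-culture by 0.152 with clone V, by 0.047 with clone H and by 0.005 with KPC1, and all 3 lines overlapped the mono-culture. With library size scaling the values for clone H and KPC1 turned to -0.043 and -0.0877, and for KPC1 also with RLE scaling, to -0.0059. The core was lower with clones M (-0.314), K (-0.258), T (-0.127), E (-0.083) and N (-0.05), and all libraries lay below the mono-culture with clones M and K only. Psmb10 weighed on these values. Without it they were -0.27, -0.178, -0.042, -0.031 and 0.022, so that clone N passed the mono-culture. For clones V and H and KPC1 they were then 0.214, 0.088 and 0.082. In order of the regulatory particle the groups ran V, H, KPC1, T, N, E, mono-culture, K and M. In order of the core with Psmb10 they ran V, H, KPC1, mono-culture, N, E, T, K and M. In both orders every pair of neighbors overlapped in its libraries.

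**Figure D3:**
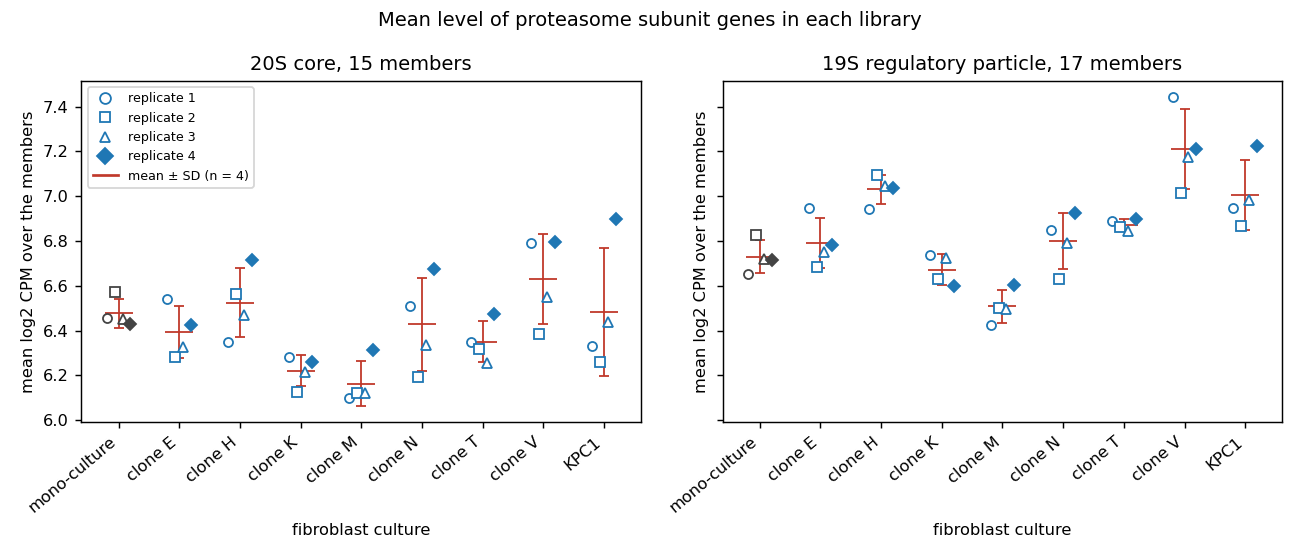
Mean log2 CPM of the 15 core members (left) and the 17 regulatory particle members (right) in each library of the 9 groups, with markers for the replicate numbers and red lines for mean ± SD (n = 4). The regulatory particle of clones H, T, V and KPC1 lies above the 4 mono-culture libraries and that of clone M below them, while the core lies below them with clones K and M.

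The difference between both means, core minus regulatory particle, was lower in every co-culture than in mono-culture. It was -0.252 ± 0.0389 in mono-culture (libraries -0.197, -0.257, -0.267 and -0.288). For clones M, N, E and K it was -0.344 ± 0.0438, -0.37 ± 0.0956, -0.397 ± 0.0286 and -0.453 ± 0.0791. For clones H and T, KPC1 and clone V it was -0.506 ± 0.126, -0.522 ± 0.0699, -0.524 ± 0.134 and -0.581 ± 0.111. All 4 libraries lay below the lowest mono-culture library in 7 lines and 3 of 4 with clone N. Psmb10 weighed on this difference. Without it all 4 libraries lay below the mono-culture in 4 lines, E, H, T and V, 3 of 4 with clone K and KPC1, and 2 of 4 with clones M and N. Likewise, the change from mono-culture was -0.0477, -0.046, -0.0926 and -0.266 for clones M, N, E and V, against -0.0919, -0.118, -0.145 and -0.329 when Psmb10 was kept. Regulatory particle members such as Psmd8, at 0.82 with clone N, also weigh on the difference, and leaving them out was not tried. Median log2 fold changes of the regulatory particle and of the core without Psmb10 lay close in 2 lines. They were 0.06 and 0.04 with clone N, and -0.25 and -0.28 with clone M.

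The replicate number went with this difference. In all 8 co-cultures the library numbered 4 had the highest core minus regulatory particle value, between -0.423 and -0.249, whereas in mono-culture number 4 was the lowest, at -0.288. The labels do not say what the number stands for, but sample titles carry a running number. It goes through the 8 co-cultures replicate number by replicate number and lists the mono-culture libraries last. If handling followed this order, its part in the comparisons with mono-culture cannot be told apart from that of co-culture. As number 4 was highest in each co-culture and lowest in mono-culture, leaving out these libraries had to enlarge the difference from mono-culture. It then ran from -0.122 with clone M to -0.396 with clone V, which is not a further result.

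**Figure D4:**
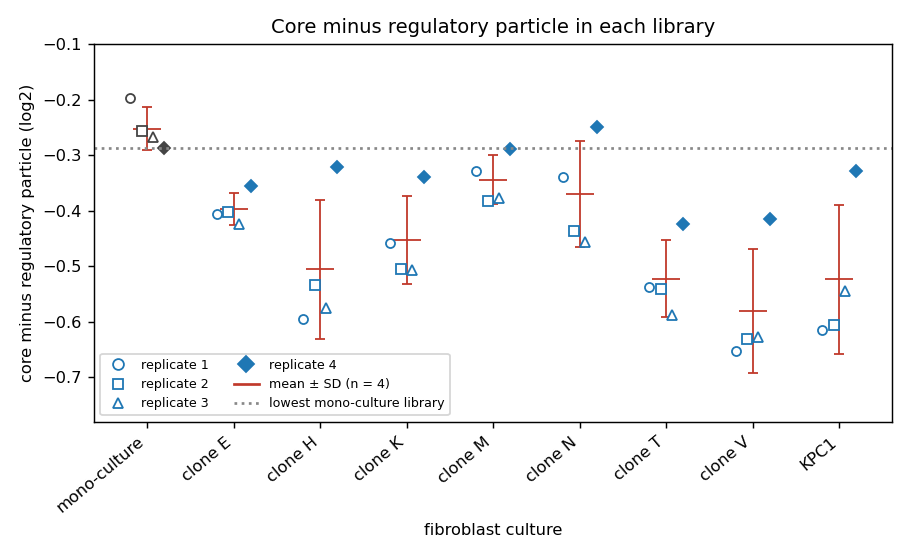
Core minus regulatory particle (difference of mean log2 CPM) in each library of the 9 groups; the marker gives the replicate number, filled for number 4, red lines give mean ± SD (n = 4), and the dotted line is the lowest mono-culture library, at -0.288. All co-culture libraries lie below the line except clone N number 4, at -0.249, and number 4 is the highest in each co-culture.

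The fold changes of the single members were summarized in the same way. The median log2 fold change was 0.46 over the regulatory particle and 0.17 over the core with clone V, 0.31 and 0.03 with clone H, 0.31 and 0.13 with KPC1, 0.12 and -0.05 with clone T, and -0.25 and -0.30 with clone M, beside a median over all genes tested between -0.01 and 0.01 in each. With clone V 14 of 17 regulatory particle genes and 5 of 15 core genes were called, with clone H 10 and 4, and with KPC1 9 and 4, beside 58.3%, 54.2% and 59% of all genes in either direction. Over both directions, the regulatory particle exceeded background with clone V (82.4%), stood near it with clone H (58.8%) and below it with KPC1 (52.9%). The core stood below it in all 3 lines (33.3%, 26.7% and 26.7%). The 14, 10 and 9 calls of the regulatory particle were all rises. Their shares exceeded the 29.4%, 27.8% and 30.5% of all genes called higher. Of the core calls, 4, 2 and 2 were rises. In the clonal mean the 5 members called higher all belonged to the regulatory particle and the 2 called lower to the beta ring.

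To determine if the tumor lines differed from each other, the 7 clonal co-cultures were compared in 1 F-test per gene, which uses no mono-culture library. Of the 36 members, 29 (80.6%) were called, against 67.5% of all genes tested. The smallest p-values were those of Psmc6 (F = 45.4, adjusted p = 1.15e-11), Psmc2 (F = 20.4, adjusted p = 1.89e-08), Psmc1 (F = 17.4, adjusted p = 8.46e-08), Psmd11 (F = 14.5, adjusted p = 4.65e-07) and Psmc4 (F = 14.5, adjusted p = 4.72e-07), all of the regulatory particle. The 7 members not called were Psmb1, Psmb6, Psma2, Psmc3, Psmd13, Psmd9 and Psmd10. KPC1 exceeded the mean of the clones in 11 members and was below it in 0, beside 22.3% and 18.8% of all genes. These included 5 of the 6 ATPases, led by Psmc6 (0.47 ± 0.06, adjusted p = 1.90e-06), Psmd8, Psmd14 and Psmd11, and Psmb3, Psmb5 and Psmb7 of the beta ring, while Psmc3 did not differ beyond its spread (-0.02 ± 0.07, adjusted p = 0.881). Without KPC1 replicate 4 the calls for Psmc4 (0.22, adjusted p = 0.025) and Psmd14 (0.28, adjusted p = 0.0104) were lost, at an adjusted p of 0.0941 and 0.127, as were those for Psmb3 (0.245), Psmb5 (0.627) and Psmb7 (0.0822), so that 5 of the 11 calls rested on that library. Psmb7 was also lost without KPC1 replicate 1 and Psmc2 without KPC1 replicate 2 (0.0602), and 7 members were called under library size scaling.

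The promoters of the 4 members with the smallest p-values among clones are shown because each holds the ETS core CCGGAA. This motif was singled out after its counts were seen. Psmc4, which had the next smallest p-value, held no match in its promoter. That all 4 hold the motif thus depends on where the list was cut. RefSeq lists a promoter window of 300 bases for 30 of the 36 members, some with more than 1 start. Searched on both strands, the motif was found in 16 of the 30, in 10 of 14 regulatory particle genes and 4 of 12 core genes, and in 14.9% of all promoters. Here and below, members were counted by gene, with a match in any of their windows. All promoters were counted by single window, over 32851 windows, whether or not the gene was tested. The shares thus differ in unit and in gene set. Capitals mark the motif in the sequences (GRCm38.p6), as CCGGAA or its complement.

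Psmc6, chr14:45329574-45329873, plus strand: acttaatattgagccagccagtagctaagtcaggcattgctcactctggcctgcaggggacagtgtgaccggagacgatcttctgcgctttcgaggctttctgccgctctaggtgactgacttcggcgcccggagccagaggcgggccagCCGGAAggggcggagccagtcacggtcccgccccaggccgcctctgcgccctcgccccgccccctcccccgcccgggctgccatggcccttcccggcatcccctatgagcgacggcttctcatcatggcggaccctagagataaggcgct

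Psmc2, chr5:21786497-21786796, plus strand: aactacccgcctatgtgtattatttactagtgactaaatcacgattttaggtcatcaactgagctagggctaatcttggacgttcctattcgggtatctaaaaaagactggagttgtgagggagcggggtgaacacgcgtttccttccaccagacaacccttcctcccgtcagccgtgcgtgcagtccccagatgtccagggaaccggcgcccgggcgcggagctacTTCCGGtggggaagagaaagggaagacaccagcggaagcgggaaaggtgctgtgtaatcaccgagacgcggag

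Psmc1, chr12:100109952-100110251, plus strand: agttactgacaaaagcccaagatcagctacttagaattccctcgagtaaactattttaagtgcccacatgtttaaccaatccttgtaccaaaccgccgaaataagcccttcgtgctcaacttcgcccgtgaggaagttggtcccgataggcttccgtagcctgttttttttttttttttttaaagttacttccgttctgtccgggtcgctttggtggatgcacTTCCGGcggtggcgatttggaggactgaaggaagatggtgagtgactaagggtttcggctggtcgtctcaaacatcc

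Psmd11, chr11:80428365-80428664, plus strand: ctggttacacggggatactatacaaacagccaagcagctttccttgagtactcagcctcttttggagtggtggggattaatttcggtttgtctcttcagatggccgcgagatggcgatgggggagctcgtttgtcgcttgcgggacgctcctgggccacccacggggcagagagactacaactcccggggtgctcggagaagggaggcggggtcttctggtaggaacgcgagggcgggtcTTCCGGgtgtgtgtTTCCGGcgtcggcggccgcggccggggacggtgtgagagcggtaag

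Psmc6 has the motif 100 bases before the start, Psmc2 at -23 in this window (RefSeq lists a second one, which also holds it), Psmc1 at -27 and Psmd11 at -10 and 5. The promoters of Psmc4 and Psmd8, which rose in most lines, held no such match, and Psmc4 had a GCGCANGCGC site of nuclear respiratory factor 1, found in 6 of 30 members and 4.6% of promoters. The antioxidant response core TGACNNNGC, which Nfe2l1 and Nfe2l2 can bind, was found in 5 of 30 members (Psmb5, Psmb6, Psmc6, Psmd12 and Psmd9) and in 12.4% of all promoters. Of the others, CCAAT was found in 12 of 30 members and 37.4% of promoters, GAAANNGAAA in 3 and 3.44%, CACGTG in 3 and 7.15%, and TGATGNAA, an ATF4 site, in 1 and 3.97%. A match is a description of these letters and not evidence of binding.

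To place the members among the genes they work with, 41 further genes of the pathway were listed, of which 40 were in the table and tested. In the clonal mean 7 were called higher and 14 lower, with clone V 19 and 11, with KPC1 19 and 10, with clone H 16 and 11, and with clone M 1 and 10. As shares, 17.5% were called higher and 35% lower in the clonal mean (24.3% and 24.9% of all genes), 47.5% higher with clone V (29.4%) and KPC1 (30.5%), 40% higher with clone H (27.8%) and 25% lower with clone M (10.8%), while the shares called lower with clones V and H and KPC1, at 27.5%, 27.5% and 25%, stood near their backgrounds. Adrm1, the ubiquitin receptor of the regulatory particle whose symbol the rule does not take, was called higher in 6 lines, with a largest log2 fold change of 0.69 with clone V. Shfm1, the smallest lid subunit, was called lower in 6, with a lowest log2 fold change of -0.85 with clone H. Of the assembly factors, Psmg1 was called lower in 5 lines and Pomp, which matures the core, in 1, that of clone M (-0.32, adjusted p = 0.0399).

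The transcription factor Nfe2l1 had its own levels in the same groups. It stood at 481 ± 60.4 CPM in mono-culture, at 675 ± 83.0, 668 ± 79.9, 645 ± 88.9 and 591 ± 56.0 CPM with KPC1 and clones V, H and T, which were called higher, and at 349 ± 37.5 CPM with clone M, which was called lower (log2 fold change -0.46, adjusted p = 0.00605). In clones E, K and N it was not called. Akirin2, which imports proteasomes into the nucleus, was called higher with clones V, H and KPC1 and lower with clone M. Ngly1, the enzyme that activates the Nfe2l1 protein, was called lower in 5 lines, with a lowest value of -1.06 with clone V, and Nfe2l2 was called higher in 7.

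Other lists moved with the groups as well. The 12 proliferation genes summed to 2108 ± 168 CPM in mono-culture, to 2651 ± 303 CPM with clone H, 2647 ± 342 CPM with clone V and 2363 ± 221 CPM with KPC1, where the regulatory particle was highest, and to 1661 ± 259 CPM with clone K and 1785 ± 173 CPM with clone M, where it was lowest. Clone N, whose regulatory particle mean overlapped the mono-culture, also had a low sum, at 1747 ± 293 CPM. Clone T, whose regulatory particle lay above the mono-culture in all 4 libraries, had a sum of 2039 ± 148 CPM, below that of the mono-culture. Of the 12 genes, Birc5 and Mcm5 were lower in every co-culture mean (at most 49.6 and 224.9 CPM) than in mono-culture (59.0 and 267 CPM). The sum of the fibroblast markers was lowest with KPC1, clone V, clone H and clone T, at 14790 to 17120 CPM, and highest with clones M and K. It came mostly from Col1a1, Col1a2 and Col3a1. Pdgfrb and Thy1 were higher in every co-culture mean (at least 693.7 and 214.1 CPM) than in mono-culture (576.3 and 195 CPM). The co-culture means of the other markers lay on both sides of the mono-culture. The part of the fibroblast markers in the proteasome results was not tested. The epithelial sum was lowest with clone V, at 109 CPM, and highest with clones N and T, at 552 and 538 CPM. Single genes of that list differed widely between co-cultures, such as Cdh1, with group means from 0.0304 to 30.9 CPM. The sum therefore need not follow the amount of tumor cell RNA, and its part was not tested.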

How the data were processed

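RNA of 36 fibroblast libraries in 9 groups was sequenced from poly(A)-selected, strand-specific libraries made from 200 ng of RNA with 14 PCR cycles and read as 76-base pairs. The authors deposited whole-number counts per gene, not normalized, and separately the RPKM values of the same libraries. The submitters' processing notes name STAR, featureCounts, edgeR and mm10, with versions and the strand setting of counting not given in the sources used here.

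The counts were filtered by edgeR's filterByExpr with the groups as design, which left 14439 of 39017 genes, scaled by TMM (factors 0.957 to 1.07) and tested with edgeR's quasi-likelihood test (edgeR 4.0.16, limma 3.58.1, R 4.3.3) in 1 fit of all 36 libraries. Contrasts were each co-culture, and the mean of the 7 clones, against mono-culture, KPC1 against that mean, and an F-test among the clones. P-values were adjusted by Benjamini-Hochberg over all genes tested. The 8 contrasts share the mono-culture libraries, so counts over lines are described and no overlap between them is tested. Printed CPM are TMM scaled, and means over members use log2 CPM with a prior count of 1. RPKM was used to compare genes with each other, and for an alternative test on log2(RPKM + 1) or log2(RPKM + 0.1) with limma.

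The members and lists were chosen with earlier results of these data known. Named genes were, by a fixed rule, the members with the highest and lowest fold change of each role in the clonal mean, of each co-culture and of KPC1 against the clones, the 5 with the smallest p among clones, the catalytic subunits, Psmb10, Psmd2, Psmd4, Psmd14, the chaperones and Psmc3ip; other members are given for completeness. Replicates of a group were checked for duplicates: chi-square per degree of freedom was 5.475 to 60.11 over 54 pairs. Steps were tested on simulated data. Alternatives were DESeq2 1.42.0, RLE or library size scaling, other count filters, a threshold of 0.1, the compared groups alone, the replicate number as a block, the RPKM tests, leaving out each library, leaving out Psmb10, and, chosen after seeing the data, leaving out the libraries numbered 4. Near copies were found with blastn 2.17.0, and promoters come from RefSeq (GRCm38.p6). Figures were drawn with matplotlib 3.10.9 in Python 3.11.15.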

Additional observations from a re-analysis of the deposited data

Results flagged for a closer look

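In 351 sets of 4 libraries, the 36 members, both means and their difference in each group, 13 held a library whose gap to the nearest other, divided by the range of the group, passed Dixon's critical value. Chance flags about 1 in 20 sets, or 17.55 of these. The mean of the core with clone M had a ratio of 0.898, with replicate 4 at 6.315 above the next at 6.121 (log2 CPM). Core minus regulatory particle with clone V had a ratio of 0.894, with replicate 4 at -0.4148 and the next at -0.6267. With KPC1, replicate 4 was highest in Psma3 (ratio 0.946, 183.8 against 110.5 CPM), in Psmb4 (0.911, 154.7 against 107.1 CPM) and in Psmb6 (0.877, 166 against 111.1 CPM). With clone H, replicate 4 was highest in Psmb1 (0.895, 255.2 against 196.9 CPM) and replicate 2 in Psmb2 (0.887, 176.8 against 153.9 CPM), and in mono-culture replicate 2 was highest in Psmb2 (0.929, 179 against 151.7 CPM). With clone E, replicate 1 was highest in Psmb4 (0.904, 147.9 against 115.6 CPM) and Psmd13 (0.838, 52.14 against 42.37 CPM). With clone K, replicate 4 was lowest in Psmd3 (0.843, 173.2 against 194.8 CPM). Psmc1 with clone K had a ratio of 0.941, with replicate 4 lowest at 106.9 CPM and the next at 122.8 CPM, and Psmd11 with clone M a ratio of 0.874, with replicate 2 highest at 128 CPM and the next at 119.8 CPM.

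Effects that differed between tumor lines, by a test of the difference itself, were found for 29 of the 36 members among the 7 clones and for 11 between KPC1 and the mean of the clones. These were 80.6% and 30.6% of the members, beside 67.5% and 41.1% of all genes tested.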

How the results depend on the processing

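Of 129 single results called in the report's contrasts, 81 stayed past the threshold under all alternatives tried. The 129 include the 29 calls of the F-test among clones, which have no sign. Of the others, 0 turned sign. With DESeq2, RLE scaling and at least 10 counts in every library, all counts of members called stayed within 1.5 times those reported. At an adjusted p under 0.1 the counts were 7 for clone E, 4 for clone K and 19 for clone M, and in a fit of the compared groups alone 7, 9 and 23. Without the filter on low counts 1 member was called for clone K. Under library size scaling and both RPKM tests 7 were called between KPC1 and the clones. Without the libraries numbered 4 the count for clone K was 5. The cause was not tested. The share of all genes called is not given for the alternatives, here or below. Their counts are thus not read as a trait of the members. Leaving Psmb10 out moved core minus regulatory particle, less mono-culture, to -0.0926 for clone E, -0.121 for K, -0.0478 for M and -0.185 for T.

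With the replicate number as a block, 5 members were called for clone K and 19 for clone M, and no other count moved by over 1.5 times. Nothing in the labels says what a number marks, though titles list the co-cultures in order of this number and the mono-culture last. Deviations of same-numbered libraries correlated above 0.1 in 5 of 32 pairs of mono-culture with a co-culture and in 63 of 112 pairs of co-cultures, at all 4 numbers in 3 of 28 pairs of co-cultures and in 0 of 8 with mono-culture. On average over the other groups, 24 of 32 co-culture libraries and 0 of 4 mono-culture libraries correlated best with their own number, a hint from the data that the co-cultures share something by number.

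Leaving out 1 library gave 2 to 4 members for clone E, 11 to 15 for H, 1 to 2 for K, 5 to 13 for M, 3 to 6 for N, 6 to 9 for T, 17 to 22 for V, 12 to 16 for KPC1, 5 to 8 for the clonal mean, 9 to 13 for KPC1 against the clones and 26 to 32 among clones. Core minus regulatory particle, less mono-culture, ranged from -0.158 to -0.126 for E, -0.315 to -0.224 for H, -0.238 to -0.182 for K, -0.11 to -0.0735 for M, -0.158 to -0.0894 for N, -0.303 to -0.248 for T, -0.384 to -0.305 for V and -0.336 to -0.241 for KPC1.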
